A study of Mus musculus with 6 samples.

Results

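The 40 genes described here code for proteins that make ribosomes: *Myc*, the transcription machinery of RNA polymerase I, and the nucleolar proteins that cut, modify and fold ribosomal RNA. They were chosen by name, as a list of symbols, and each of the 40 symbols matched a single row among the 22063 genes of the deposited count table. All 40 were expressed highly enough to be tested. The cells were primary mouse cardiac fibroblasts with floxed *Tet3* alleles (*Tet3* f/f, age not used here), carried in 3 libraries per group. *Tet3* codes for a dioxygenase that oxidises 5-methylcytosine in DNA. The GFP group received an adenovirus for green fluorescent protein and was labelled Control, and the CRE group received one for Cre recombinase, driven by a CMV promoter that is active in many cell types, and was labelled Tet3 knockout. Both groups then had TGF-β, so that every value below is from cells under TGF-β, and no arm without it was analysed here. The comparison asks how mRNA of the ribosome-making machinery differed when *Tet3* was targeted in such cells.

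Ribosome production begins in the nucleolus, where RNA polymerase I copies the repeated ribosomal DNA genes into a long precursor RNA. Small nucleolar ribonucleoproteins (snoRNPs) then guide methylation and pseudouridylation of the precursor, large assemblies fold and cut it, and the small and large subunits mature separately before they leave the nucleus. MYC is known as a growth-linked activator of many of these genes. Activated fibroblasts secrete much matrix protein and depend on the ribosomes made by this route.

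The targeted gene was lower in the CRE libraries. *Tet3* stood at 57.1 ± 6.88 CPM (CPM, counts relative to the effective library size after TMM scaling, mean ± SD, n = 3) in GFP and at 34.7 ± 1.17 CPM in CRE, a log2 fold change of -0.72 (SE 0.08, adjusted p = 5.4e-05). Reads from exons outside the deleted part still count toward the gene, so that the remaining 60.8% is not a measure of uncut alleles. Total counts were between 17002126 and 20343590 per library. Fibroblast markers were abundant in every library but lower in CRE, with 11 of 12 past the test and a summed level of 54390 to 56085 CPM by library size in GFP against 32394 to 34761 in CRE. Endothelial markers were lower for 8 and higher for 1 of 11 tested (997 to 1050 CPM in GFP, 1048 to 1110 in CRE, but 399 to 446 against 231 to 255 without *Eng*, the higher one), leukocyte markers lower for 3 of 6 tested (55.3 to 62.7 against 37.0 to 41.0 CPM), and smooth muscle and pericyte markers lower for 5 and higher for 1 of 9 (139 to 157 against 128 to 142 CPM). No cardiomyocyte marker was high enough to test (0.85 to 1.08 against 1.45 to 1.76 CPM, *Myh6* at 0). The part of these shifts in the results below was not tested. In bulk RNA, fewer cells of a type and less RNA per cell cannot be told apart.

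Of the 40 ribosome biogenesis genes, 20 were lower in CRE, 4 were higher (*Rrn3*, *Bop1*, *Rrp1* and *Las1l*) and 16 did not pass edgeR's quasi-likelihood test at an adjusted p under 0.05. Among all 12862 tested genes, 25.7% were lower and 25.5% higher by the same test. The median log2 fold change of the 40 genes was -0.15, against 0.0052 for all tested genes, and single genes ran from -0.74 for *Gar1* to 0.27 for *Las1l*. The 20 lower genes were also the 20 whose CRE values all lay below every GFP value, and the 4 higher genes were the 4 whose CRE values all lay above. The share of all tested genes with CRE wholly below GFP was 29.6%, and the share with CRE wholly above was 30.0%.

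**Figure D1:**
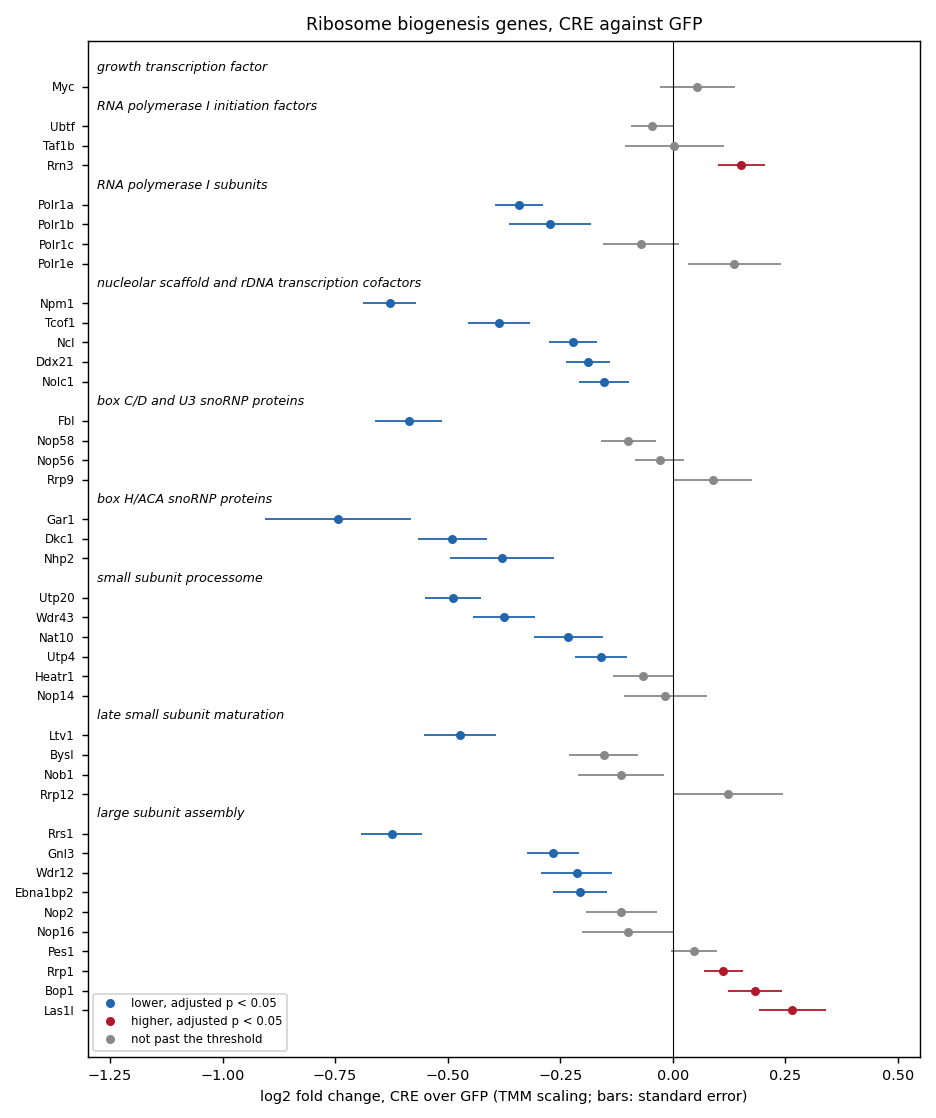
Log2 fold change of each of the 40 genes, CRE over GFP (x axis, TMM scaling), grouped by role on the y axis, with points for the estimate and bars for its standard error. Genes lower at an adjusted p under 0.05 are blue (20), higher ones red (4) and the others grey (16). All 3 H/ACA proteins and all 5 scaffold and cofactor genes lie left of 0, although *Nolc1* moves to 0.0095 with library size alone.

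How the libraries were scaled decided a large part of this balance. TMM assumes that most genes do not change, and it gave factors between 0.944 and 0.947 to the GFP libraries and between 1.05 and 1.06 to the CRE libraries. With library size alone the median of all genes moved to 0.17, and 10 of the 40 genes were then lower and 8 higher, against 16.2% lower and 43.0% higher over all tested genes. On FPKM values, which the authors scaled themselves, limma on log2(FPKM + 1) called 7 lower and 8 higher, against 14.9% and 38.7% of all tested genes. The median of the 40 genes lay below that of all genes by nearly the same distance under TMM and library size alone (a difference of -0.16 under both) and by less on FPKM (-0.10). The equal distance follows from the method, since a change of library scaling shifts all genes by nearly the same amount. A set of 7 genes was lower in the 10 fits with other processing and in the 6 fits that each left out 1 library: *Npm1*, *Fbl*, *Dkc1*, *Gar1*, *Utp20*, *Ltv1* and *Rrs1*. *Polr1a*, *Tcof1* and *Wdr43* were lower in the same fits except the pair on FPKM. The other 10 lower genes lost their call both with library size alone and on FPKM. The 8 higher genes were the same with library size alone and on FPKM, namely *Myc*, *Polr1e*, *Rrp9* and *Pes1* besides the 4 above.

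**Figure D2:**
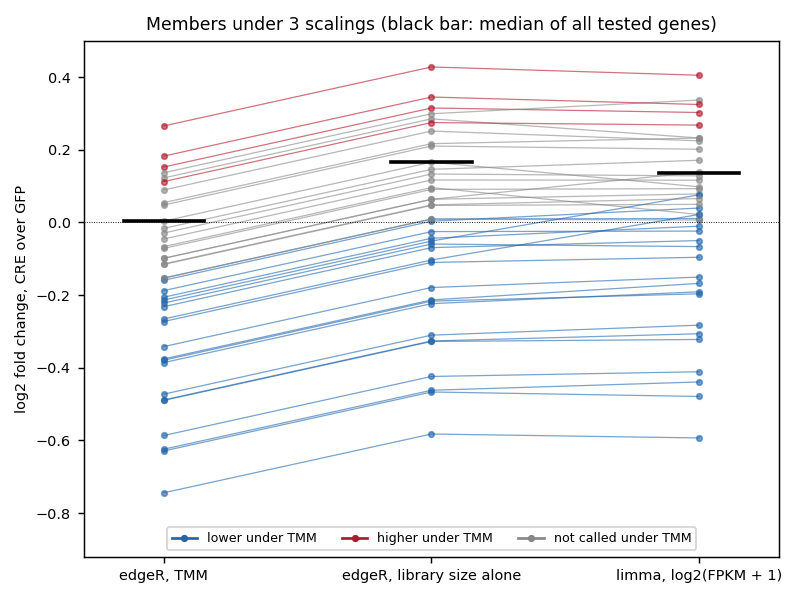
Log2 fold change of each gene, CRE over GFP (y axis), under edgeR with TMM, edgeR with library size alone and limma on log2(FPKM + 1) (x axis), with 1 line per gene coloured by its call under TMM. The black bars are the medians of all tested genes (0.0052, 0.17 and 0.13), and the 7 genes lowest on the right are those still called lower there.

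The library of GFP replicate 1 stood apart for these genes. It was the highest of the GFP libraries for 32 of the 40, whereas 38.2% of all tested genes were highest there. Its median log2 ratio to the other GFP libraries was 0.13 over the 40 genes and 0.0052 over all tested genes. Without it 15 genes were lower and 4 higher, and the 7 genes named above were again among the lower ones. The share of all tested genes called in that fit was not counted, so these counts are not set against all genes. The 40 genes together took 0.274% ± 0.014 of all counts in GFP and 0.259% ± 0.0017 in CRE (SD, n = 3). Without *Npm1* and *Ncl*, the most abundant pair, the shares were 0.166% ± 0.0075 and 0.169% ± 0.0012.

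*Myc* mRNA did not differ beyond the spread of the libraries. The gene lies at chr15:61985391-61990374 on the plus strand of GRCm38. Its values were 45.8, 37.5 and 38.1 CPM in GFP and 44.8, 39.5 and 41.6 CPM in CRE. The groups overlapped, and the log2 fold change was 0.05 (SE 0.08, adjusted p = 0.613; exact two-sided permutation p = 0.6, where 0.1 is the smallest that 3 against 3 allows). With library size alone the estimate was 0.22 (adjusted p = 0.0410) and on log2(FPKM + 1) it was 0.23 (limma adjusted p = 0.0201), where the medians of all genes were 0.17 and 0.13. Of 12 tested genes of the MYC network, 3 were lower and 3 higher, the same as the shares of all tested genes to within 1 gene, and 2 were lower and 7 higher with library size alone, while 1 was higher without GFP replicate 3. *Mnt*, a repressor that competes with MYC for its partner MAX, fell by 0.80 on the log2 scale (SE 0.12, adjusted p = 0.00029), and *Max* itself by 0.14 (SE 0.05, adjusted p = 0.0325). *Mxd1*, *Mxd4* and *Mlxip* were the higher ones, by 0.58, 0.22 and 0.18. *Mycl* was lower but rested on few reads, at 1.36 ± 0.24 CPM in GFP and 0.33 ± 0.17 CPM in CRE.

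Of the factors that recruit RNA polymerase I, *Rrn3* was higher and *Ubtf* and *Taf1b* were not called. *Rrn3* codes for the factor that makes the polymerase competent to start and that growth signals act on. It had 87.2, 79.3 and 78.8 CPM in GFP and 91.1, 88.7 and 92.7 CPM in CRE. Every CRE value was above every GFP value, by a log2 fold change of 0.15 (SE 0.05, adjusted p = 0.0304). That call was lost with DESeq2 and without GFP replicate 2, GFP replicate 3, CRE replicate 1 or CRE replicate 3, where adjusted p reached 0.116 at most. The estimate for *Rrn3* rose to 0.31 with library size alone (adjusted p = 0.00043) and to 0.30 on log2(FPKM + 1) (limma adjusted p = 0.0020). *Ubtf*, whose product keeps ribosomal DNA open, had a difference of -0.05 (SE 0.05, adjusted p = 0.455). *Taf1b*, a subunit of the promoter selectivity factor SL1, had 11.9 ± 1.58 CPM in GFP and 11.9 ± 0.51 CPM in CRE (adjusted p = 0.981).

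Of the 4 genes for polymerase I subunits among the 40, *Polr1a* and *Polr1b* were lower and *Polr1c* and *Polr1e* were not called. *Polr1a*, which codes for the largest, catalytic subunit, had 90.2, 85.6 and 83.1 CPM in GFP and 64.6, 69.4 and 70.2 CPM in CRE. The groups were clearly apart, CRE standing at 78.9% of GFP, with a log2 fold change of -0.34 (SE 0.05, adjusted p = 0.00037). The same gene was at -0.18 with library size alone (adjusted p = 0.0143) and at -0.15 on log2(FPKM + 1) (limma adjusted p = 0.0975). *Polr1b*, for the second-largest subunit, had 16.5 ± 0.72 CPM in GFP and 13.6 ± 1.19 CPM in CRE (log2 fold change -0.27, SE 0.09, adjusted p = 0.0283). This call did not hold with library size alone, DESeq2 or FPKM, nor without GFP replicate 1, GFP replicate 2, CRE replicate 1 or CRE replicate 3. *Polr1c*, a subunit shared with RNA polymerase III, and *Polr1e*, for a subunit that helps initiation, had log2 fold changes of -0.07 (SE 0.08, adjusted p = 0.509) and 0.14 (SE 0.10, adjusted p = 0.296).

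All 5 genes for nucleolar scaffold proteins and cofactors of ribosomal DNA transcription were lower under TMM, and *Npm1* and *Ncl* had the most reads of the 40 genes. Nucleophosmin, the product of *Npm1*, fills the outer granular zone of the nucleolus and chaperones assembling subunits. *Npm1* (chr11:33152287-33163206, minus strand) had 10298, 10007 and 11942 counts in GFP and 7463, 6654 and 7777 counts in CRE, or 640.3, 564 and 620.5 CPM against 401, 369 and 411 CPM. The lowest GFP library lay well above the highest CRE library, and CRE stood at 64.7% of GFP. The log2 fold change was -0.63 (SE 0.06, adjusted p = 1.6e-05), and the exact two-sided permutation test gave its smallest possible p of 0.1. *Npm1* has processed pseudogenes in the mouse genome, and how reads shared with them were counted is not given in the sources used here. *Tcof1* codes for treacle, which is mutated in Treacher Collins syndrome and holds the polymerase and its factors together. It stood at 76.6% of GFP, from 30.6 ± 1.52 to 23.5 ± 1.32 CPM (log2 fold change -0.39, SE 0.07, adjusted p = 0.0010).

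The other 3 scaffold and cofactor genes were lower by smaller amounts. *Ncl* codes for nucleolin, which binds nascent precursor RNA, and had 577, 513 and 514 CPM in GFP and 464, 449.8 and 462 CPM in CRE. CRE lay below GFP throughout, by -0.22 on the log2 scale (SE 0.05, adjusted p = 0.0055). With library size alone the difference was -0.06 (adjusted p = 0.349). *Ddx21*, for a helicase that acts in both ribosomal DNA transcription and precursor processing, had -0.19 (SE 0.05, adjusted p = 0.0086), or -0.03 with library size alone. *Nolc1*, for a chaperone of snoRNPs, had -0.15 (SE 0.05, adjusted p = 0.0390) and turned to 0.0095 with library size alone. The call for *Nolc1* held without GFP replicate 2 and was lost when any of the other 5 libraries was left out. It was also lost with upper-quartile scaling, DESeq2, the replicate block and on FPKM.

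Among the proteins of box C/D snoRNPs, which methylate ribosomal RNA, the methyltransferase stood apart from its partners. *Fbl* codes for fibrillarin, the enzyme of the particle. It had 39.9, 36.2 and 36.1 CPM in GFP and 22.9, 24.8 and 26.9 CPM in CRE. The groups were separated by more than the whole range of either, and CRE stood at 66.5% of GFP (log2 fold change -0.59, SE 0.07, adjusted p = 0.00011). *Fbl* lies at chr7:28169710-28179269 on the plus strand. *Nop56* and *Nop58*, for the core proteins that hold fibrillarin on the guide RNA, had log2 fold changes of -0.03 (SE 0.05, adjusted p = 0.684) and -0.10 (SE 0.06, adjusted p = 0.200). *Rrp9*, specific to the U3 particle, had 0.09 (SE 0.09, adjusted p = 0.413). The difference between *Fbl* and its partners was not tested, and *Nop56* and *Nop58* turned to 0.13 and 0.06 with library size alone.

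The 3 genes for box H/ACA proteins were all lower. These particles convert uridine to pseudouridine in ribosomal RNA, and the same proteins sit on the telomerase RNA. *Dkc1*, for the pseudouridine synthase dyskerin (chrX:75095854-75109777, plus strand), had 23.2, 22.0 and 21.7 CPM in GFP and 16.5, 16.4 and 14.7 CPM in CRE. CRE stood at 71.2% of GFP, with no overlap (log2 fold change -0.49, SE 0.08, adjusted p = 0.00043). *Gar1* (chr3:129824912-129831396, minus strand) codes for a small protein that binds dyskerin. It had the lowest counts of the 40 genes, with 101, 109 and 129 in GFP and 80, 53 and 79 in CRE. Its difference was also the widest, at 59.6% of GFP, and the least precise (log2 fold change -0.74, SE 0.16, adjusted p = 0.0033). *Nhp2*, for the third of these proteins, had 24.6, 18.04 and 23.7 CPM in GFP and 15.7, 17.94 and 17.3 CPM in CRE. Here the nearest libraries all but met, at 18.04 in GFP and 17.94 in CRE (log2 fold change -0.38, SE 0.12, adjusted p = 0.0190). *Nhp2* had -0.22 with library size alone and did not pass the test there (adjusted p = 0.133), and its call was also lost without GFP replicate 3 or CRE replicate 1.

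Of 11 other snoRNP genes, 4 were lower and none was higher by edgeR at an adjusted p under 0.05 (1 at an unadjusted p under 0.05, and 0 by DESeq2). Without CRE replicate 3 or with upper-quartile scaling 1 was higher, with library size alone 2 were lower and 1 higher, on log2(FPKM + 1) 2 were lower and 2 higher, and with DESeq2 2 were lower. *Naf1*, which codes for the factor that holds the place of GAR1 while H/ACA particles assemble, had 39.2, 38.7 and 41.5 CPM in GFP and 19.99, 19.1 and 18.2 CPM in CRE. At 48.0% of GFP this was a wider difference than that of any of the 40 genes (log2 fold change -1.06, SE 0.06, adjusted p = 1.0e-06). *Nop10*, for the remaining H/ACA core protein, and *Shq1*, for the chaperone of dyskerin, were looked up after their values were seen and had log2 fold changes of 0.0047 (SE 0.10, adjusted p = 0.976) and 0.05 (SE 0.14, adjusted p = 0.792).

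**Figure D3:**
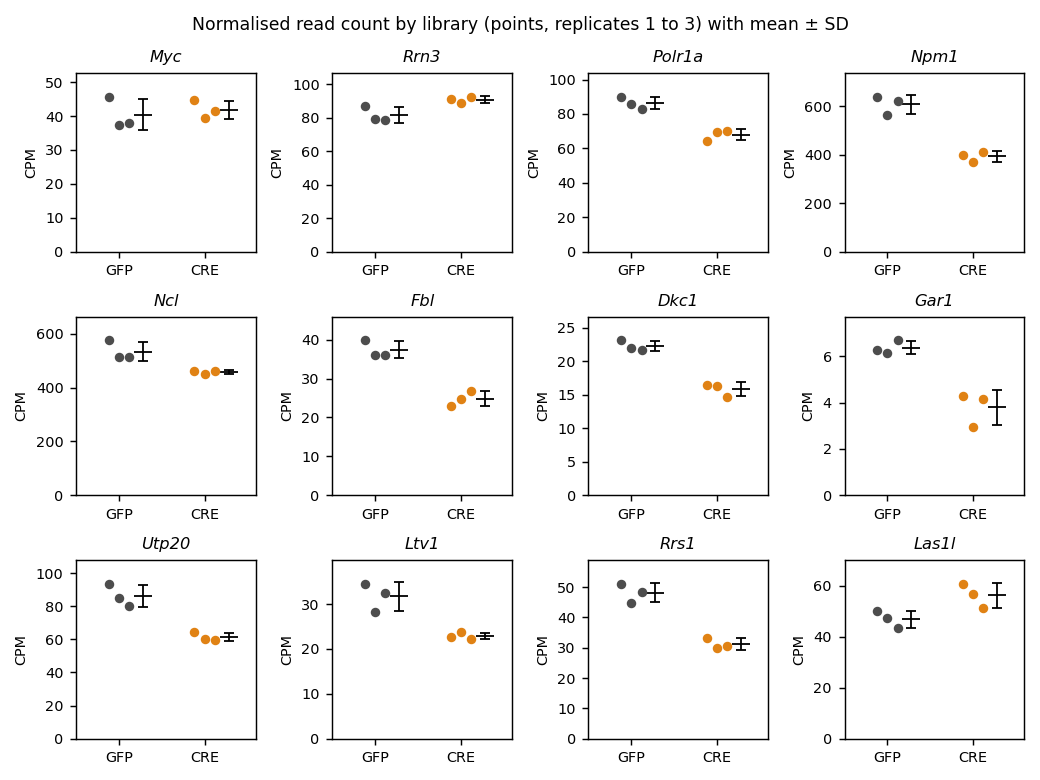
Normalised read count (CPM after TMM scaling, y axis from 0) of 12 of the 40 genes in each GFP and CRE library (points, replicates 1 to 3 from left to right), with mean ± SD beside them. *Npm1*, *Fbl*, *Dkc1*, *Gar1*, *Utp20*, *Ltv1* and *Rrs1* show a gap between groups, *Myc* overlaps, and *Las1l* is higher in CRE.

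The small subunit processome is the large assembly that folds the front of the precursor and releases the future small subunit. All 6 of its genes had negative estimates and 4 passed the test under TMM, but *Utp4*, *Heatr1* and *Nop14* turned positive with library size alone (0.0034, 0.10 and 0.15). *Utp20*, for a very long helical-repeat protein (chr10:88746607-88826804, minus strand), had 93.6, 84.8 and 80.3 CPM in GFP and 64.1, 60.3 and 59.9 CPM in CRE. CRE stood at 71.2% of GFP with no overlap (log2 fold change -0.49, SE 0.06, adjusted p = 0.00011). *Wdr43*, *Utp4* and *Heatr1* code for parts of the subcomplex that joins the precursor first. *Wdr43* went from 63.2 ± 3.98 to 48.8 ± 3.74 CPM (log2 fold change -0.38, SE 0.07, adjusted p = 0.0011), and *Utp4* had -0.16 (SE 0.06, adjusted p = 0.0391), a call that held in 1 of the 6 fits with a library left out, the one without GFP replicate 3. *Utp4* also lost this call with library size alone, upper-quartile scaling, DESeq2, the replicate block and on FPKM. *Heatr1* had -0.07 (SE 0.07, adjusted p = 0.435). *Nat10*, for the enzyme that acetylates cytidines of the small subunit RNA, had -0.23 (SE 0.08, adjusted p = 0.0281) and lost this call with library size alone (-0.07, adjusted p = 0.470), with DESeq2, on FPKM (-0.05) and without GFP replicate 1, GFP replicate 3 or CRE replicate 1. *Nop14* had 58.2 ± 9.06 CPM in GFP and 57.5 ± 0.81 CPM in CRE, and its wide GFP spread came from 68.5 CPM in GFP replicate 1.

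In the late steps of small subunit maturation, *Ltv1* was the 1 gene of 4 that passed. Its product is an assembly factor that must leave the particle before it can translate. *Ltv1* (chr10:13178140-13193168, minus strand) had 34.6, 28.2 and 32.6 CPM in GFP and 22.8, 23.7 and 22.2 CPM in CRE. The CRE values lay close together and below every GFP value, at 72.0% of GFP (log2 fold change -0.47, SE 0.08, adjusted p = 0.00074). *Bysl*, another assembly factor, had -0.15 (SE 0.08, adjusted p = 0.119, or 0.0404 without GFP replicate 3), and *Nob1*, for the nuclease that makes the final cut, had -0.12 (SE 0.10, adjusted p = 0.340). *Rrp12*, for an export factor, had 0.12 (SE 0.12, adjusted p = 0.430) and ran from 13.6 to 19.6 CPM within GFP, the highest being GFP replicate 1, without which its adjusted p was 0.0463.

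Large subunit assembly was the most divided role, with 4 of 10 genes lower, 3 higher and 3 not called. *Rrs1* codes for a protein that, with its partner RPF2, places the 5S particle on the early large subunit. It is a gene of a single exon at chr1:9545408-9547455, plus strand, and had 51.2, 44.9 and 48.5 CPM in GFP and 33.4, 30.0 and 30.5 CPM in CRE. No CRE library came near the lowest GFP library, and CRE stood at 64.8% of GFP (log2 fold change -0.62, SE 0.07, adjusted p = 4.0e-05). *Gnl3*, which codes for the GTP-binding protein nucleostemin, went from 50.8 ± 2.62 to 42.2 ± 1.73 CPM (log2 fold change -0.27, SE 0.06, adjusted p = 0.0035), but was at 0.02 on log2(FPKM + 1). *Ebna1bp2*, for an early assembly factor, had -0.21 (SE 0.06, adjusted p = 0.0157), lost with library size alone (-0.04, adjusted p = 0.550), on FPKM (-0.01) and without CRE replicate 2 or CRE replicate 3.

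PES1, BOP1 and WDR12 form the complex that is needed for cutting the spacer before the large subunit RNA, and their genes did not move together. *Bop1* had 41.7, 39.9 and 40.5 CPM in GFP and 44.5, 49.5 and 44.5 CPM in CRE (log2 fold change 0.18, SE 0.06, adjusted p = 0.0253). *Wdr12* went the other way, from 29.0 ± 2.57 to 25.01 ± 1.44 CPM (log2 fold change -0.21, SE 0.08, adjusted p = 0.0437), a direction that flipped on log2(FPKM + 1), at 0.08. *Pes1* had 0.05 (SE 0.05, adjusted p = 0.461), with overlapping groups. Neither call held in every fit, since *Bop1* was lost with DESeq2 and without GFP replicate 2, GFP replicate 3 or CRE replicate 2, although its estimate was 0.35 with library size alone (adjusted p = 0.00069) and 0.32 on log2(FPKM + 1). *Wdr12* was lost in 6 of the 10 processing fits and without GFP replicate 1, GFP replicate 3, CRE replicate 1 or CRE replicate 2.

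*Las1l* showed the widest rise among the 40 genes. It codes for the nuclease that cuts the internal spacer. *Las1l* (chrX:95935335-95956962, minus strand) had 49.99, 47.3 and 43.5 CPM in GFP and 60.9, 57.0 and 51.2 CPM in CRE, so that the nearest values of the groups were 49.99 and 51.2. The log2 fold change was 0.27 (SE 0.07, adjusted p = 0.0129), which held in all 10 processing fits and was lost without GFP replicate 3 or CRE replicate 1, with adjusted p of up to 0.0586. It was 0.43 with library size alone and 0.41 on log2(FPKM + 1). *Rrp1*, for a factor of early large subunit assembly, was higher by only 0.11 (SE 0.04, adjusted p = 0.0476) and lost its call with DESeq2, RLE scaling, the replicate block or no filter beyond 1 count and in each of the 6 fits that left out a library, but was at 0.27 with library size alone and on log2(FPKM + 1). *Nop2*, for a methyltransferase of the large subunit RNA, and *Nop16* had -0.11 (SE 0.08, adjusted p = 0.256) and -0.10 (SE 0.10, adjusted p = 0.447).

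The wider machinery was counted in lists of genes that are not among the 40. Across 6 such lists together, with 151 tested genes, 28 were lower (18.5%) and 39 higher (25.8%), against 25.7% and 25.5% of all tested genes, and the median log2 fold change was 0.04. The single lists differed, since the snoRNP list above had 4 lower and none higher of 11 by edgeR with TMM, and no difference between lists was tested. Of 13 other RNA polymerase I and SL1 genes, 1 was lower (*Polr1d*, -0.22) and 5 were higher, led by *Polr2l* (0.77), *Polr2e* (0.39) and *Taf1d* (0.33). The former pair code for small subunits shared by all nuclear polymerases. The 5 became 3 with DESeq2, without GFP replicate 3 or without CRE replicate 2, and the 1 became 0 by edgeR without CRE replicate 2 and with library size alone (1 and 0 at an unadjusted p under 0.05). With that scaling 7 were higher. Of 42 other processome genes, 8 were lower and 16 higher, between -0.93 for *Utp14b* and 0.51 for *Imp4*, but 7 were lower and 7 higher with DESeq2, 10 were higher without GFP replicate 2, and 4 were lower and 25 higher with library size alone. Of 57 other large subunit assembly genes, 12 were lower (21.1%) and 13 higher (22.8%), near the shares of all tested genes, between -0.77 for *Mdn1*, which codes for the giant ATPase that strips assembly factors from the particle, and 0.48 for *Znhit2*. The other small subunit maturation genes had 3 higher and none lower of 12 tested by edgeR (0 at an unadjusted p under 0.05, 0 by DESeq2, and 1 lower without GFP replicate 2), and 8 were higher with library size alone. The 3 were *Riok2* (0.29), *Riok3* (0.22) and *Eif1ad* (0.21), and the RNA exosome and related exonucleases had 3 lower and 2 higher of 16, with 1 lower under DESeq2, without CRE replicate 1 or without CRE replicate 3, and 1 lower and 6 higher with library size alone.

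**Figure D4:**
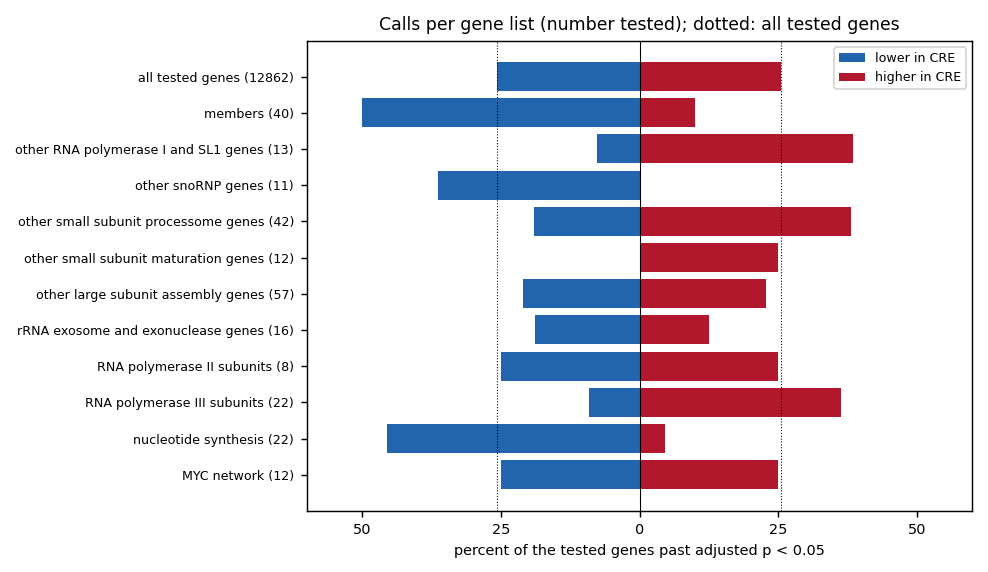
Share of tested genes past an adjusted p under 0.05 (x axis, percent, lower in CRE to the left and higher to the right) in the 40 genes and in each wider list (number tested in parentheses, TMM scaling). The dotted lines are the shares of all tested genes (25.7% and 25.5%). The 40 genes extend farthest to the left, with 20 of 40, but with library size alone the count is 10 of 40.

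By the GO terms in the table, 38 of the 40 genes were annotated to the nucleolus, against 6.24% of tested genes. This follows from the choice of genes, which took nucleolar proteins by name, and is no separate result. By GENCODE M21 annotation on GRCm38, 6 of the 40 (15%) held a snoRNA gene within their bounds on the same strand, against 1.71% of 12822 tested protein-coding genes. The hosts were *Ncl*, *Nop56*, *Nop58*, *Dkc1*, *Wdr43* and *Gnl3*. *Ncl*, *Dkc1*, *Wdr43* and *Gnl3* were among the lower genes and *Nop56* and *Nop58* were not called. Levels of the snoRNAs were not analysed here. Exons of some of the 40 overlap exons on the other strand, such as *Bysl* with 361 bases and *Polr1a* with 185 of 11871, and the strand setting of the counting is not given in the sources used here.

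MYC and related factors bind the E-box CACGTG, so the promoters of the 40 genes were searched for it. The search also took in CCGGAAG, a site of ETS factors, and TCTCGCGA, an element of housekeeping promoters, on both strands from 250 bases before to 50 after each start in RefSeq on GRCm38.p6. Promoters were found for 33 of the 40 genes, 40 promoters in all. None was found for *Myc*, *Npm1*, *Fbl*, *Tcof1*, *Rrs1*, *Bop1* or *Rrp12*, which include several of the widest differences. CACGTG, which reads the same on both strands, occurred in 7 of 40 (17.5%), against 9.77% of 13006 promoters of tested genes and 7.15% of all 32851. CCGGAAG occurred in 13 of 40 (32.5%), against 16.8% and 8.86%, and TCTCGCGA in 3 of 40 (7.5%), against 2.08% and 0.995%. The 7 genes with an E-box are printed here because they include both directions of change, with the E-box in capitals, and none of these windows holds either of the other motifs.
Rrn3, chr16:13780472-13780501, plus strand: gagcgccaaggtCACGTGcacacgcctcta
Rrn3, chr16:13780639-13780668, plus strand: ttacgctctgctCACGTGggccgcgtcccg
Utp4, chr8:106893643-106893672, plus strand: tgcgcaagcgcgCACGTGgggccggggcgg
Utp20, chr10:88826765-88826789, minus strand: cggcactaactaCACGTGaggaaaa
Wdr43, chr17:71616220-71616249, plus strand: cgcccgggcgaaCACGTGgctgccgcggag
Ltv1, chr10:13193092-13193121, minus strand: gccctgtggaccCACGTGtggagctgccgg
Pes1, chr11:3963965-3963994, plus strand: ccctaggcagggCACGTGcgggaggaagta
Nop2, chr6:125131811-125131840, plus strand: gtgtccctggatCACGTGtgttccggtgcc

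Among the genes with a promoter, the E-box occurred with either direction under TMM, but the higher side rested on *Rrn3* alone. Of the 7 genes that hold it, *Utp4*, *Utp20*, *Wdr43* and *Ltv1* were lower, *Rrn3*, with a pair of E-boxes, was higher, and *Pes1* and *Nop2* were not called, while 16 of the 33 genes with a promoter were lower and 3 higher. The calls for *Rrn3* and *Utp4* were lost in several fits, as given above. In *Rrn3* the E-boxes began 215 and 48 bases before the start (written as -215 and -48), and in *Utp20* and *Ltv1* they began 37 and 28 bases after it. The 13 genes with CCGGAAG were 6 lower, among them *Gar1* and *Nhp2*, 2 higher and 5 not called. A match of letters in these windows is a description only, and no binding was measured in the data used here.

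Levels per length were compared on the FPKM scale. *Npm1* led with 424 ± 29.4 FPKM in GFP and 303 ± 13.9 FPKM in CRE, followed by *Ncl* with 62.2 and *Nop58* with 53.2 FPKM in GFP. *Polr1b* and *Rrp12* were the lowest, with 3.92 and 3.55 FPKM in GFP. The median over the 40 genes was 16.5 FPKM in GFP, against 8.30 for all tested genes, and 31 of the 40 lay above the latter value.

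**Figure D5:**
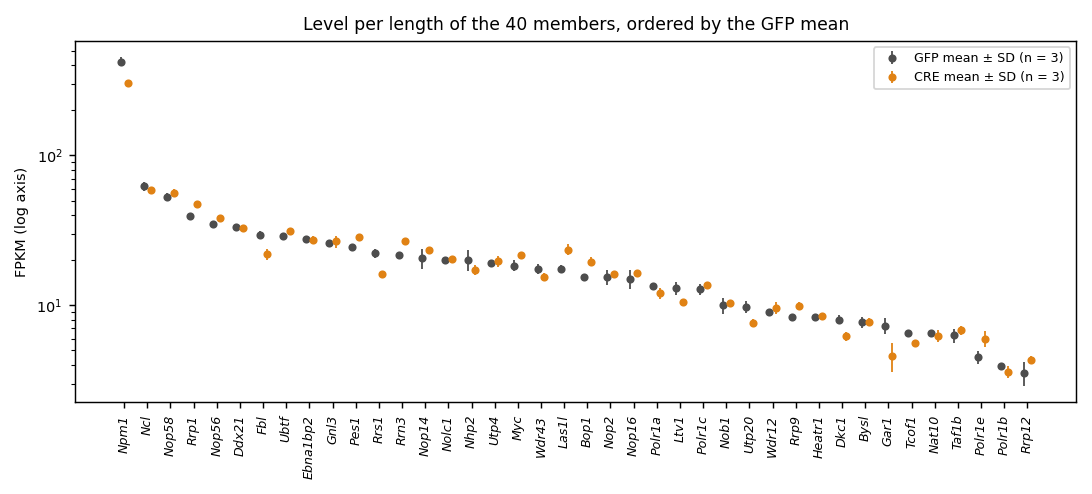
Level per length of the 40 genes (FPKM on a log axis, mean ± SD, n = 3 per group), ordered by the GFP mean from left to right. *Npm1* lies at 424 FPKM in GFP, far above *Ncl* at 62.2. On this scale the orange CRE points lie above the GFP points for most of the 40 genes, such as *Rrp1*, *Rrn3*, *Las1l* and *Myc*. They fall below for the others, such as *Npm1*, *Fbl*, *Rrs1* and *Gar1*.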

How the data were processed

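RNA-seq values of 6 libraries, 3 labelled GFP and 3 labelled CRE in their titles, were analysed. The methods of the study name Trimmomatic for trimming, HISAT2 for alignment to GRCm38 and HTSeq-count for counting. Raw counts for each gene were deposited by the authors, next to FPKM from Cufflinks. The log2 fold change, p-value and false discovery rate deposited by the authors hold their own comparison and were not used. Tool versions and the strand setting of the counting are not given in the sources used here, and the labels and the methods name different RNA and library kits. The study calls its replicates biological, but the labels do not tie a library to a culture or animal, so p-values measure the spread between these samples.

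The main test was run in edgeR 4.0.16 (R 4.3.3). Its filterByExpr step (minimum count 10, minimum total 15) left 12862 of 22063 genes, which were scaled by TMM and compared by the quasi-likelihood test (CRE against GFP, both sides). P-values were adjusted by Benjamini-Hochberg over every gene tested. The SE of a log2 fold change is its size over the root of F. CPM relate counts to the effective library size. Each library held 17002126 to 20343590 counts, and counting error is therefore smallest for *Npm1* and *Ncl* and largest for *Gar1*, whose lowest count was 53. On simulated data, 12862 genes at these depths, the test recovered 74.3% of genes raised 1.5-fold and 68.5% of genes lowered to 0.667-fold. Each simulated set changed only a small part of the genes, all in the same direction. In the data 25.7% were called lower and 25.5% higher, so the adjusted threshold was less strict. The simulated rates therefore do not give the recovery in the data.

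The 40 genes and all lists were chosen with earlier results of these data known. Every one of the 40 was named, and from each wider list at most the 3 highest and 3 lowest calls, or all genes of lists with 8 or fewer. Exceptions are marked where they occur. The values of a few listed genes are not reported here. Alternatives in scaling were upper-quartile, RLE and library size alone. Alternatives in filtering were 1 count in all and 10 counts in each library. DESeq2 1.42.0, limma-voom (limma 3.58.1), limma on log2(FPKM + 1) or log2(FPKM + 0.1), a block by replicate number and fits with each library left out were run, and calls were repeated at an adjusted p under 0.01 and with the limits of the study (raw p under 0.05, ratio above 1.5 or below 0.66). Positions are from GENCODE M21, promoters from RefSeq on GRCm38.p6. Figures were drawn with matplotlib 3.10.9 in Python 3.11.15.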

Additional observations from a re-analysis of the deposited data

How the results depend on the processing

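Of the comparisons of each of the 40 genes with its result under another setting, 494 kept direction and side of the threshold, 83 lost the call without turning, 14 gained one without turning and 49 turned direction. Of the 49, 10 were genes called with TMM, which lost the call as they turned. The members lower in CRE were 20 with TMM, 10 with library size alone, 7 on log2(FPKM + 1), 7 on log2(FPKM + 0.1), 13 at an adjusted p under 0.01, 3 with the study's limits (raw p under 0.05 and a ratio above 1.5 or below 0.66), and 15 with DESeq2. Leaving out 1 library gave 14 to 18. The members higher in CRE were 4 with TMM, 8 with library size alone, 8 on either FPKM scale, 1 with DESeq2, 0 at an adjusted p under 0.01 (4 at an unadjusted p under 0.05 with edgeR) and 0 with the study's limits. Leaving out 1 library gave 0 to 4, with 0 without GFP replicate 3 (edgeR, 3 at an unadjusted p under 0.05), 1 without GFP replicate 2, 1 without CRE replicate 1, and 2 without CRE replicate 2 or CRE replicate 3. With the replicate block, 18 were lower and 3 higher, and *Nolc1*, *Utp4* and *Rrp1* lost their calls. Shares over all tested genes were counted only with TMM, library size alone and log2(FPKM + 1). The counts under the other settings are therefore not set against all genes. Deviations of GFP and CRE libraries with the same number correlated at 0.05, 0.18 and -0.02 over genes, so that the numbers were not taken to pair the samples, and not every library correlated best with its own number. *Tet3* was lower in every fit run, between -0.78 and -0.55.

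The turns of direction were mostly from below to above 0, under scalings in which the median of all genes was above 0 (0.17 with library size alone, 0.13 on log2(FPKM + 1)). With library size alone, log2(FPKM + 1) and log2(FPKM + 0.1) the log2 fold changes were 0.12, 0.12 and 0.12 for *Ubtf*, 0.091, 0.093 and 0.099 for *Polr1c*, 0.0095, 0.011 and 0.011 for *Nolc1*, 0.13, 0.13 and 0.13 for *Nop56*, 0.064, 0.078 and 0.080 for *Nop58*, and 0.0034, 0.040 and 0.041 for *Utp4*. They were 0.096, 0.022 and 0.024 for *Heatr1*, 0.15, 0.17 and 0.18 for *Nop14*, 0.047, 0.050 and 0.055 for *Nob1*, 0.0091, 0.0066 and 0.0075 for *Bysl*, 0.048, 0.066 and 0.070 for *Nop2*, and 0.063, 0.14 and 0.15 for *Nop16*. On the FPKM scales alone they were 0.076 and 0.083 for *Wdr12* and 0.022 and 0.023 for *Gnl3*. *Nop14* was at 0.0028 with upper-quartile scaling and *Taf1b* at -0.0023 with no filter beyond 1 count. Leaving out 1 library gave -0.085 to 0.11 for *Taf1b*, -0.061 to 0.020 for *Nop56*, -0.11 to 0.0088 for *Heatr1*, -0.10 to 0.11 for *Nop14* and -0.20 to 0.0057 for *Nop16*, the highest values of the last 4 being those without GFP replicate 1. With library size alone the wider lists moved too, for example to 5 lower and 29 higher of the other large subunit assembly genes. Over all tested genes that scaling gave 16.2% lower and 43.0% higher. Genes with few reads, *Gar1* above all, are known less precisely.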

Other observations

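The ribosomal proteins that sit with 5S RNA in the particle RRS1 helps to place were lower by more than most of the 40 genes. *Rpl5* had 636, 586 and 637 CPM in GFP and 360.3, 327 and 358 CPM in CRE (log2 fold change -0.83, SE 0.05, adjusted p = 1.5e-06). *Rpl11* had 272, 263 and 288 CPM against 171, 159 and 176 CPM (log2 fold change -0.70, SE 0.05, adjusted p = 4.6e-06). Free 5S particles are known to bind MDM2 and so restrain the breakdown of p53. *Mdm2* was higher by 0.60 (SE 0.05, adjusted p = 1.3e-05) and *Cdkn1a*, a p53 target, by 0.26 (SE 0.05, adjusted p = 0.0024), while *Trp53* had -0.10 (SE 0.04, adjusted p = 0.0613). No link among these values was tested.

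Nucleotide synthesis supplies precursors of RNA and DNA, and the listed genes include some for DNA precursors alone, such as *Tyms*. Of 22 genes, 10 were lower (45.5%) and 1 was higher (4.55%, *Prps2*, 0.25), against 25.7% and 25.5% of all tested genes. *Tyms* (-0.56), *Nme2* (-0.55) and *Cad* (-0.48), the enzyme that starts pyrimidine synthesis, led the lower ones. With library size alone 6 were lower and 9 higher, where 16.2% of all tested genes were lower and 43.0% higher. Without GFP replicate 1 or GFP replicate 2, 2 were higher. RNA polymerase III, which makes 5S RNA among other RNAs, was listed together with its transcription factors and *Maf1*. Of these 22 genes, 8 were higher (36.4%, with *Brf2* 0.43, *Polr3e* 0.42 and *Brf1* 0.38 at most) and 2 lower (9.09%). *Gtf3a*, the factor for 5S genes, was among the lower ones (-0.39). These became 13 higher and 1 lower with library size alone, and 1 was lower without CRE replicate 2. The polymerase II subunits that are not shared had 2 lower (*Polr2m*, *Polr2a*) and 2 higher (*Polr2b*, *Polr2j*) of 8, near the shares of all tested genes. Under library size alone 1 was lower and 4 higher, and on log2(FPKM + 1) none was lower (limma, 0 at an unadjusted p under 0.05) and 5 were higher. DESeq2 gave the counts of edgeR with TMM, while none was higher by edgeR without GFP replicate 2 or CRE replicate 3 (2 at an unadjusted p under 0.05 in either fit) and 1 without CRE replicate 1, and 1 was lower without GFP replicate 2, CRE replicate 1 or CRE replicate 2. Of the proliferation genes, 19.0% were called in each direction, below the shares of all tested genes, with 4 lower (*Mcm2* -0.77, *Ccna2* -0.54 and *Mcm3* -0.53 among them) and 4 higher (*Ccnd1* 1.57, *Ccne1* 0.45 and *E2f1* 0.20 among them) of 21. Without GFP replicate 1, 7 were lower and 3 higher, and the same counts came with the replicate block, while 2 were higher with DESeq2 and without GFP replicate 3, CRE replicate 1 or CRE replicate 2, and 6 on library size alone.

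A pair of GO terms chosen after the values were seen gave wider views. Outside the 40 genes, 41 of 128 tested genes of rRNA processing were lower and 27 higher, and of 764 tested genes of the nucleolus 200 were lower and 178 higher, against 25.7% and 25.5% of all tested genes.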
